A study of Mus musculus with 10 samples.

Results

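The genes described here are the mouse genes whose symbol is Zfp followed by digits alone and that reached 200 or more read counts summed over all livers, 275 genes of the 376 with such a symbol and of the 55421 genes in the count table. The rule used the symbol and the summed count only, and no difference between groups. The sum includes the KO livers, so a gene low in the controls can reach the limit through its KO counts. Poly(A) RNA was sequenced from whole livers of 10 male mice. The H3.3 knockout (KO) livers (n = 4) came from animals with both H3f3a and H3f3b floxed (H3f3a fl/fl, H3f3b fl/fl) that received AAV8 Tbg-Cre, in which a hepatocyte promoter drives Cre recombinase. One kind of control (n = 3) was wild-type with the same AAV8 Tbg-Cre, and the other kind (n = 3) was floxed at both genes and received AAV8 Tbg-MCS, which carries no Cre. Every animal received its virus when 6 months old, and livers were collected after a further 3 weeks. Cre expression is directed to hepatocytes, and the other cells of the liver are not targeted.

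Zfp genes encode zinc finger proteins, most of which carry arrays of C2H2 fingers, short loops held by a zinc ion that read the bases of DNA. Many of them, the KRAB zinc finger proteins, also carry a KRAB box, which recruits the corepressor Trim28 and with it the H3K9 methyltransferase Setdb1, and are best known for the silencing of transposable elements and imprinted loci. Many KRAB genes lie in chromosomal clusters that arose by duplication. H3.3 is the histone H3 variant that is laid down outside of DNA replication, and it is present both at active genes and at silenced repeats.

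The targeted genes were examined first, since one label field names Hira for the floxed animals while the sample titles name H3f3a and H3f3b. H3f3a was at 59.9, 63.5 and 61.3 CPM, the read count scaled to a common library size, in the wild-type Tbg-Cre controls, at 63.7, 63.4 and 61.0 in the floxed Tbg-MCS controls, and at 16.03, 18.7, 15.97 and 19.0 in the KO livers. H3f3b was at 137 to 204 CPM in the controls and at 39.8 to 56.7 in the KO. Neither gene overlapped between KO and controls (log2 fold change -1.83 and -1.66; exact permutation test over the 210 arrangements of the livers, two-sided p = 0.00952 for each, the smallest that this design allows). Hira did not pass the test (log2 fold change -0.14, edgeR adjusted p = 0.477). The libraries held 14998426 to 26096141 counts, with the lowest total in KO replicate 1, and the Zfp genes took 0.253% to 0.296% of them. The 8 hepatocyte markers summed to 101000 to 145000 CPM in the controls and to 77500 to 90500 CPM in the KO. The 8 Kupffer cell and macrophage markers summed to 200 to 372 CPM in the controls and to 453 to 988 CPM in the KO, and the 8 stellate cell and fibroblast markers to 214 to 274 and to 485 to 776 CPM. All 16 markers of the last lists rose, 5 of the 8 hepatocyte markers fell, and 7 of 8 cell cycle genes, 6 of 6 T and NK cell genes, 3 of 5 B and plasma cell genes, 2 of 3 detected neutrophil genes, 1 of 6 endothelial genes and 1 of 5 cholangiocyte genes rose. The fourth neutrophil gene, Ly6g, had under 10 counts in all. In bulk RNA, fewer cells of a type and less RNA per cell cannot be told apart, and the part of these cell types in the Zfp values below was not tested.

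Promoter sequences of 4 genes are shown before their values, because these genes cover a range of CpG content among the most changed members: Zfp13, with the largest rise, and Zfp672, Zfp2 and Zfp982, which fell. Each is the 250 bases upstream of the RefSeq start site in GRCm38.p6, written 5′ to 3′ along the gene's own strand, with every CpG in capitals. The positions are chr17:23599488-23599737 on the minus strand for Zfp13, chr11:58330340-58330589 on the minus strand for Zfp672, chr11:50916177-50916426 on the minus strand for Zfp2 and chr4:147492167-147492416 on the plus strand for Zfp982.
Zfp13: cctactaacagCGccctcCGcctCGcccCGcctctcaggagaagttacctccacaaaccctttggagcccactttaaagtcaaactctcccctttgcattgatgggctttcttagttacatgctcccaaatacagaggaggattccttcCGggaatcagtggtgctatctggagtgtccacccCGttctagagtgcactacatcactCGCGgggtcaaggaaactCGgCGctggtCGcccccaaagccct
Zfp672: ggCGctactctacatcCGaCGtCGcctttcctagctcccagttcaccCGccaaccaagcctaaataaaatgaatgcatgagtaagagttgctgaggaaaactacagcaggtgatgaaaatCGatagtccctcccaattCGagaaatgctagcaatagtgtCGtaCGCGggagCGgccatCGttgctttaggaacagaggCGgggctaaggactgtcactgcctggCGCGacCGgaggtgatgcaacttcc
Zfp2: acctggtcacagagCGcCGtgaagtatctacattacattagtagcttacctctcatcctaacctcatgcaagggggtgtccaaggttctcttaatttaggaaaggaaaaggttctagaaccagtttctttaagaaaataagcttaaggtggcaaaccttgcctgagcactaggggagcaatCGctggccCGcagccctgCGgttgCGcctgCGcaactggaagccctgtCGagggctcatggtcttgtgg
Zfp982: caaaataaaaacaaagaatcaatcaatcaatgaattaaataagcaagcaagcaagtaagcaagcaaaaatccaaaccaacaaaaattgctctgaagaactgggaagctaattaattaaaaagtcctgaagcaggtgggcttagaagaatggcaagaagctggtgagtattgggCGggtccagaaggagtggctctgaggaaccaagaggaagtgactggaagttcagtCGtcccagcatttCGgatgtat
These stretches hold 11 CpGs in Zfp13, 16 in Zfp672, 8 in Zfp2 and 3 in Zfp982. The count of the gene that rose lay within the range of the 3 that fell.

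Promoter windows of 300 bases, from 250 before to 50 after the start, were matched for 229 of the 275 Zfp genes. The median window of a Zfp gene held 14 CpGs, against 7 over all 27025 promoters, with a median of 10.5 in the 142 KRAB genes and of 20 in the 85 genes without a KRAB box. The motif TATAAA, searched on both strands, was present in 5.68% of the Zfp windows and in 14.2% of all windows, and CCGGAAG, the core letters of an ETS site, in 22.7% and 9.16%. The NRF1 core GCATGCGC was present in 5.68% and 2.8%. The ETS and NRF1 letters each include a CpG. Between the members that fell and those that rose the median was 13 CpGs in both, and 15 in those that did not pass the test.

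The RNA of most Zfp genes was at a low level, in CPM that are not corrected for transcript length. The median member was at 6.07 CPM over the controls, against 13.88 CPM for all genes with 200 or more counts, and the range was 0.549 to 103.8 CPM, with 8 members above 50 CPM. By the letters of the annotated protein, 159 members carried a KRAB box, 113 did not, and 3 (Zfp267, Zfp939 and Zfp125) had no coding sequence that could be read, Zfp939 and Zfp125 being annotated as pseudogenes. The median member held 11 C2H2 fingers and the largest array held 36, whereas 11 members held none. A total of 129 members lay in 16 clusters, defined as 4 or more members whose starts follow each other at 500 kb or less, and 103 of these carried a KRAB box. Another annotated gene overlapped 121 members, in 49 of them on the same strand and in 93 on the other, and the strand setting of the counting is not given in the sources used here, so that reads of such pairs may not be separable.

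At the threshold of the study (adjusted p under 0.05 and more than 1 log2 unit) few Zfp genes with 200 or more counts changed in the KO, and at the adjusted p alone more of them fell than rose. Against all 6 controls, 19 of the 275 (6.91%) passed both limits, 8 higher and 11 lower, where 18.7% of the 22449 tested genes and 17.5% of the 13536 genes with 200 or more counts did so. Without the fold limit, 34 members (12.4%) were higher and 85 (30.9%) lower, while 156 did not pass. The background was 19.7% higher and 16.6% lower over all tested genes, and 22.6% higher and 23.4% lower over the genes with 200 or more counts. The median log2 fold change of the members was -0.225, with 196 of 275 (71.3%) below 0 and a range of -2.06 to 2.84. The median was -0.003 over all tested genes and -0.042 over those with 200 or more counts, of which 53.5% lay below 0. All KO livers lay below all controls in 67 members (24.4%) and above them in 17 (6.18%). The background was 12% below and 12.5% above over all tested genes, and 17.3% and 15.4% over those with 200 or more counts. When the counts were scaled by library size alone, the median of all genes moved to 0.172 and the split became 45 higher and 45 lower members. Of all tested genes 25.1% were then higher and 9.68% lower, against 16.4% each of the members. The members' median remained 0.22 log2 units below that of all genes, as with TMM. On log2(FPKM + 0.1) and log2(FPKM + 1) the members' median minus that of all genes was smaller in size, at -0.151 and -0.068. Without KO replicate 1, 30 members passed both limits, with 36 higher and 89 lower at the adjusted p alone.

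**Figure D1:**
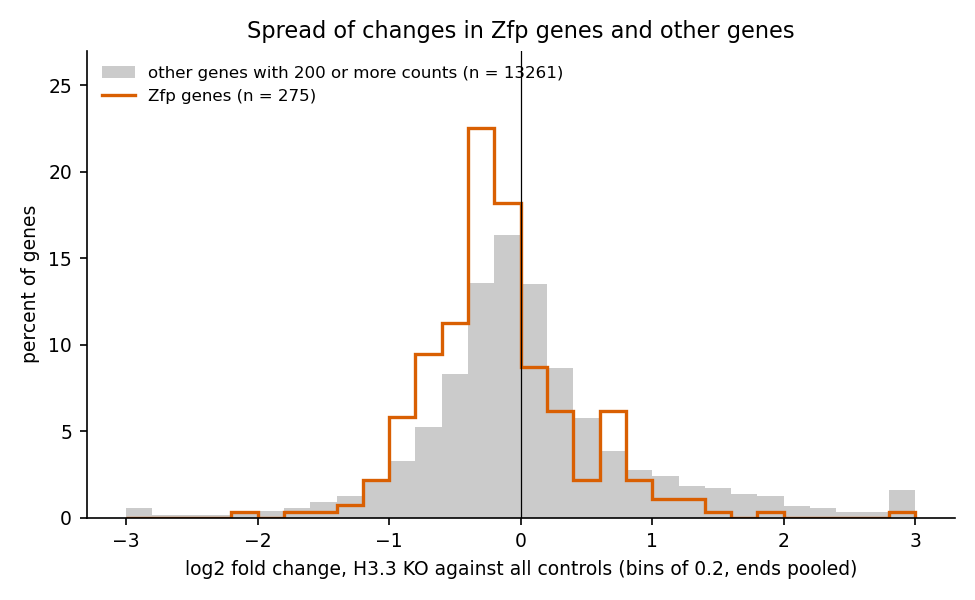
Percent of genes by log2 fold change of the H3.3 KO livers against all 6 controls, in bins of 0.2, for the 275 Zfp genes (orange outline) and for the other genes with 200 or more counts (grey). The outline sits to the left of the grey histogram with a median of -0.225 under TMM scaling. Scaled by library size alone the medians of the Zfp genes and of all tested genes move together, to -0.046 and 0.172, with genes beyond the axis pooled in the end bins.

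**Figure D2:**
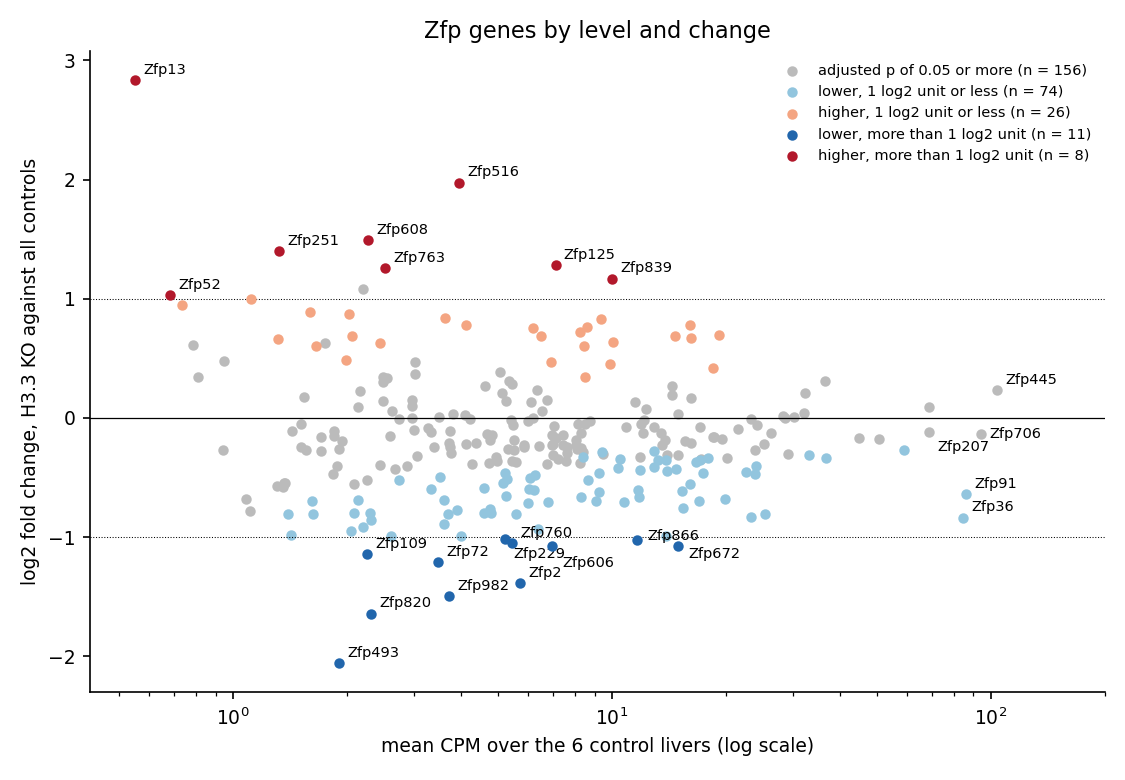
Log2 fold change of each Zfp gene in the H3.3 KO against its mean CPM over the 6 controls (log axis), with the genes past both limits and the 5 most abundant genes named. The 8 red genes above 1 and the 11 dark blue genes below -1 lie below 20 CPM, and the 5 most abundant genes lie between the dotted lines.

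The rise of Zfp13 was the largest among the 275 members. Zfp13, a KRAB gene on chromosome 17 (GRCm38 positions 23575844 to 23599487), was at 0.334, 0.694 and 0.516 CPM in the wild-type Tbg-Cre controls, at 0.692, 0.670 and 0.391 in the floxed Tbg-MCS controls, and at 4.11, 4.11, 4.38 and 3.33 in the KO. Every KO liver was above every control (7.25-fold; log2 fold change 2.84, SE 0.22, edgeR adjusted p = 2.19e-06). Zfp763, another KRAB gene of chromosome 17, was at 2.08, 2.52 and 1.87 CPM in the Tbg-Cre controls, at 3.297, 2.32 and 3.02 in the Tbg-MCS controls, and at 7.62, 4.90, 4.97 and 6.62 in the KO. Its groups did not overlap either (log2 fold change 1.26, SE 0.20, adjusted p = 0.000325).

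Zfp516, which promotes brown fat genes such as Ucp1, and Zfp608 rose as well, and neither carries a KRAB box. Zfp516 was at 5.08, 4.03 and 4.21 CPM and at 4.03, 2.77 and 3.52 CPM in the respective controls, and at 7.69, 17.5, 19.97 and 16.7 CPM in the KO. The lowest KO value, in replicate 1, was still above the highest control (3.93-fold; log2 fold change 1.97, SE 0.23, adjusted p = 5.04e-05). Zfp608 was at 3.04, 3.21 and 2.34 CPM and at 2.48, 1.38 and 1.17 CPM in the controls, and at 5.28, 7.51, 7.08 and 5.81 CPM in the KO. Its rise (log2 fold change 1.49, SE 0.25, adjusted p = 0.000595) was 1.17 log2 units against the Tbg-Cre controls and 1.92 against the Tbg-MCS controls. Zfp125, annotated as a transcribed pseudogene of chromosome 12 that overlaps 3110053B16Rik and Gm10478 on the same strand, was at 4.25, 4.42 and 7.74 CPM and at 7.00, 6.43 and 12.7 CPM in the controls, and at 15.1, 16.2, 14.96 and 22.4 CPM in the KO. All KO livers were above all controls (log2 fold change 1.28, SE 0.27, adjusted p = 0.00362), with reads that cannot be assigned between these 3 genes from the table.

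In the other 3 members called higher the groups overlapped, and these genes are named after their values were seen. Zfp251 was at 1.08 to 1.61 CPM in the controls and at 1.37, 3.48, 4.59 and 4.32 CPM in the KO, and Zfp839 was at 8.41 to 11.9 CPM in the controls and at 8.93, 27.6, 29.6 and 23.4 CPM in the KO. In both genes KO replicate 1 lay within the range of the controls and the other KO livers above it (log2 fold change 1.40 and 1.17, adjusted p = 0.00169 and 0.00458). Zfp52, at 0.179 to 1.01 CPM in the controls and 0.782 to 1.87 CPM in the KO, was close to both limits (log2 fold change 1.03, adjusted p = 0.0434).

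Among the members that fell, Zfp493 fell the most. Zfp493, a KRAB gene of chromosome 13, was at 1.75, 2.13 and 2.42 CPM in the Tbg-Cre controls, at 1.47, 1.79 and 1.90 in the Tbg-MCS controls, and at 0.261, 0.514, 0.379 and 0.612 in the KO. The mean of the KO was 76.9% below that of the controls, without overlap (log2 fold change -2.06, SE 0.26, adjusted p = 7.17e-05). Zfp820, a KRAB gene of chromosome 17, was at 3.00, 2.21 and 2.98 CPM and at 1.87, 2.28 and 1.51 CPM in the controls, and at 0.326, 0.870, 0.758 and 0.918 CPM in the KO. It lies in the same cluster as Zfp13 and changed in the opposite direction (log2 fold change -1.64, SE 0.29, adjusted p = 0.000766).

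Zfp982, a KRAB gene of chromosome 4, was at 4.38, 3.17 and 5.08 CPM and at 2.52, 2.41 and 4.70 CPM in the controls, and at 2.35, 1.34, 0.674 and 1.03 CPM in the KO. Its highest KO value, 2.35, lay just under its lowest control value, 2.41 (log2 fold change -1.49, SE 0.33, adjusted p = 0.00374). Zfp2, without a KRAB box, was at 5.84, 6.59 and 6.19 CPM and at 5.54, 4.87 and 5.36 CPM in the controls, and at 2.48, 2.10, 2.11 and 2.10 CPM in the KO. KO replicate 1 was the highest of the KO livers, and all of them lay below all controls (log2 fold change -1.39, SE 0.15, adjusted p = 2.06e-05). Zfp672, the most abundant of the called members that fell, was at 14.8, 16.4 and 14.7 CPM and at 13.5, 14.3 and 15.98 CPM in the controls, and at 7.82, 7.20, 6.11 and 7.30 CPM in the KO. Its KO mean was 52.5% below that of the controls (log2 fold change -1.07, SE 0.11, adjusted p = 1.56e-05).

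Zfp72, Zfp109 and Zfp606 also fell without overlap between groups. Zfp72 ranged from 2.77 to 4.02 CPM (median 3.46) in the controls and was at 1.76, 1.27, 1.77 and 1.26 CPM in the KO (log2 fold change -1.21). Zfp109 ranged from 1.67 to 2.90 CPM (median 2.22) and was at 1.04, 1.11, 1.05 and 0.880 CPM in the KO (log2 fold change -1.14). Zfp606 ranged from 5.31 to 7.78 CPM (median 7.29) and was at 4.30, 3.52, 2.65 and 2.79 CPM in the KO (log2 fold change -1.08). The last 3 called members, Zfp760, Zfp866 and Zfp229, are also named after their values were seen and lay just past the fold limit with log2 fold changes of -1.05, -1.02 and -1.01, and all KO livers lay below all controls in each. All 3 carry a KRAB box, and Zfp866 overlaps Atp13a1 and Gm20422.

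**Figure D3:**
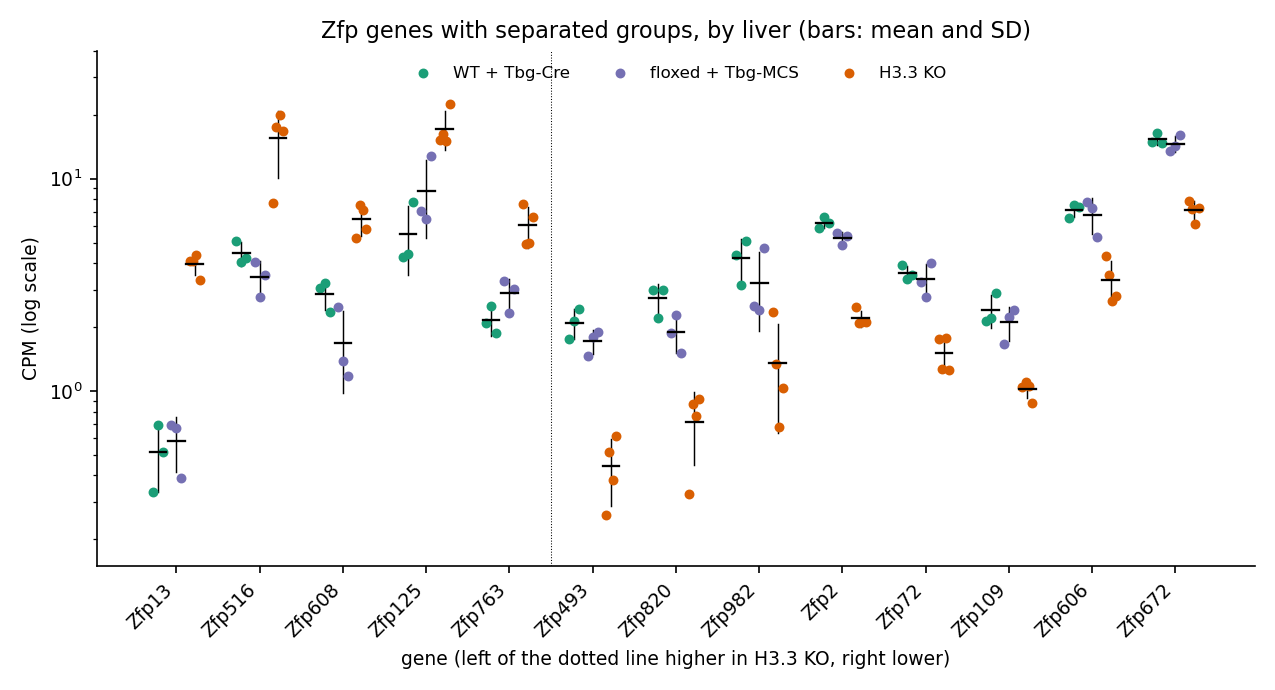
CPM (log axis) of the 5 Zfp genes with the largest rise and the 8 with the largest fall among those whose KO and control livers do not overlap, with 1 point per liver, horizontal bars at the group means and vertical bars of 1 SD. Zfp13 lies at 0.334 to 0.694 CPM in the controls and at 3.33 to 4.38 CPM in the KO, and Zfp493 at 1.47 to 2.42 and at 0.261 to 0.612 CPM.

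A list of 22 Zfp genes, most with known roles, was read next, of which 19 reached 200 counts. Among the factors that act on RNA and protein, Zfp36 (tristetraprolin), a CCCH protein that binds AU-rich mRNAs and triggers their decay, was at 84.2, 63.9 and 64.3 CPM in the Tbg-Cre controls, at 112, 104 and 78.0 in the Tbg-MCS controls, and at 48.6, 62.0, 52.7 and 26.01 in the KO. All KO livers lay below all controls (log2 fold change -0.84, SE 0.24, adjusted p = 0.0185), although the comparison with the Tbg-Cre controls alone did not pass (-0.58, adjusted p = 0.11). Zfp91, an E3 ubiquitin ligase of the noncanonical NF-kB pathway, was at 78.0 to 95.6 CPM in the controls and at 54.2, 56.6, 54.0 and 55.3 CPM in the KO (log2 fold change -0.64, adjusted p = 9.86e-05). It overlaps Cntf on the same strand. Zfp598, the ubiquitin ligase that marks collided ribosomes, was at 55.1 to 69.5 CPM in the controls and at 44.8, 54.6, 47.6 and 49.0 CPM in the KO. It passed narrowly (log2 fold change -0.27, adjusted p = 0.0422), and in 6 of 19 alternative analyses.

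Among the KRAB factors with known targets, Zfp932, a repressor of endogenous retroviruses, had a mean of 5.29 ± 0.544 CPM over the controls (SD, n = 6) and of 3.73 ± 0.777 over the KO (SD, n = 4), and fell by 0.51 log2 units (edgeR adjusted p = 0.0245, passed in 12 of 19 alternative analyses). Its relative on chromosome 5, Gm15446, which is no Zfp gene by symbol and is named after its value was seen, fell as well (log2 fold change -0.91, adjusted p = 0.0115). Zfp809, which silences murine leukemia viruses, was at 29.2 CPM in the controls and at 23.7 CPM in the KO and did not pass (log2 fold change -0.30, adjusted p = 0.0583). Zfp568, a repressor of a placental Igf2 promoter, did not pass (0.07, adjusted p = 0.66). Zfp445, which maintains imprints together with Zfp57, was the most abundant member, at 64.8, 75.6 and 111 CPM in the Tbg-Cre controls, at 112, 109 and 150 in the Tbg-MCS controls, and at 114, 121, 108 and 145 in the KO. It did not pass against all controls (0.23, adjusted p = 0.392), was 0.55 log2 units higher against the Tbg-Cre controls (adjusted p = 0.0444), and differed by -0.02 from the Tbg-MCS controls (adjusted p = 0.948). Zfp57, with 177 counts in all, was below the limit of the rule, at 0.434 to 0.834 CPM in the controls and at 0.885 to 1.38 CPM in the KO. It was higher without overlap (log2 fold change 0.90, edgeR adjusted p = 0.0126), on 8 to 36 counts per library. Zfp423 and Zfp462 were below it too.

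Among other listed members without a KRAB box was Zfp217, a partner of the CoREST corepressor that is amplified in tumors. It had a mean of 9.38 ± 1.70 CPM over the controls (SD, n = 6) and of 16.7 ± 3.18 over the KO (SD, n = 4). It rose (log2 fold change 0.83, edgeR adjusted p = 0.00108), although KO replicate 1, at 12.2 CPM, lay below the highest control, at 12.5. Zfp281, a factor of pluripotent cells, was at 15 to 22.9 CPM in the controls and at 16.4, 28.7, 30.2 and 48.8 CPM in the KO, a wide spread in which replicate 1 lay among the controls (log2 fold change 0.70, adjusted p = 0.0404), and it passed in 7 of 19 alternative analyses. Zfp410, an activator of Chd4, did not pass (19.5 to 17.2 CPM, log2 fold change -0.18, adjusted p = 0.15). Chd4 itself, which encodes the remodeler of the NuRD complex, rose from 104.5 to 280.7 CPM (log2 fold change 1.43, adjusted p = 3.66e-06). Zfp143, an activator found at promoters and chromatin loops, was at 5.98 to 7.86 CPM in the controls and at 3.52, 4.90, 4.55 and 7.61 CPM in the KO, and did not pass (-0.38, adjusted p = 0.127). Zfp148, Zfp335, Zfp326, Zfp638, Zfp106 and the spindle factor Zfp207 did not pass either, with log2 fold changes between -0.23 and 0.14, nor did Zfp706, which with Zfp445, Zfp91, Zfp36 and Zfp207 completes the 5 members of highest CPM. Per kilobase of annotated exon, Zfp36, at 24.3 CPM per kb in the controls, was above Zfp706 at 19.0 and Zfp445 at 14.01.

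The cofactors of KRAB proteins were read as a list of 24 genes of corepression and H3K9 silencing. Of these, 8 were higher (33.3%) and 5 lower (20.8%), and 4 passed both limits (16.7%, near the 18.7% of all tested genes), with a median log2 fold change of 0.11. At the adjusted p alone 19.7% of all tested genes were higher and 16.6% lower. Trim28, the platform to which KRAB boxes bind, was at 52.7 ± 3.26 CPM in the controls (SD, n = 6) and at 51.6 ± 4.15 in the KO (SD, n = 4) and did not pass (log2 fold change -0.03, adjusted p = 0.809). Setdb1, the H3K9 methyltransferase, was higher by 0.30 log2 units (adjusted p = 0.0282) and its partner Atf7ip by 1.15 (adjusted p = 3.47e-06). The maintenance factor of DNA methylation Uhrf1, at 0.626 CPM in the controls and 3.27 CPM in the KO, rose by 2.39 log2 units, and Dnmt3a by 1.38, whereas the methyltransferases Ehmt1 and Ehmt2 fell by 0.43 and 0.49 and the HP1 gene Cbx1 fell by 0.43. When the counts were scaled by library size alone, 10 of the list were higher and 1 lower, while its median relative to all genes was 0.12, against 0.11 with TMM. In that setting 25.1% of all tested genes were higher and 9.68% lower.

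The members were then counted by KRAB box, finger number, overlap and level. Over all genes with 200 or more counts, 22.6% were higher and 23.4% lower at the adjusted p. Of the 159 KRAB genes, 15 were higher (9.43%) and 53 lower (33.3%), with a median log2 fold change of -0.26. Of the 113 others 18 were higher (15.9%) and 31 lower (27.4%), with a median of -0.16. Under library size alone the numbers were 24 higher and 27 lower for the KRAB genes, with a median of -0.08. They were 20 and 17 for the others, with a median of 0.03. Of all tested genes 25.1% were then higher and 9.68% lower, with a median of 0.17. Proteins with 0 to 4 fingers (41 genes) had 10 higher (24.4%) and 8 lower (19.5%) members and a median of -0.05. With 5 to 9 fingers (71 genes) 6 were higher (8.45%) and 25 lower (35.2%), with a median of -0.27. With 10 to 14 fingers (102 genes) the numbers were 15 (14.7%) and 28 (27.5%), with a median of -0.20. With 15 or more fingers (58 genes) they were 2 (3.45%) and 23 (39.7%), with a median of -0.27. No test was made between these classes. Of the 154 members that overlap no other annotated gene, 15 were higher (9.74%) and 55 lower (35.7%), with a median of -0.27. By level, 15 members were higher (16.5%) and 22 lower (24.2%) of the 91 in the lowest class (up to 3.77 CPM). In the middle class of 92 the numbers were 10 (10.9%) and 25 (27.2%). In the highest class of 92 (from 9.08 CPM) they were 9 (9.78%) and 38 (41.3%). The members past both limits ran the other way, with 10 (11.0%), 6 (6.52%) and 3 (3.26%), against 17.5% of genes with 200 or more counts. Against the Tbg-Cre controls alone 19 (20.9%), 20 (21.7%) and 20 (21.7%) members were lower, where that background was 18.6%. The other C2H2 families with 200 or more counts (74 genes by the symbols Zbtb, Zscan, Zkscan, Klf and Sp, the last of which also takes in Sp100, Sp110 and Sp140, which are no C2H2 factors) had 15 higher and 15 lower members (20.3% each, against 22.6% and 23.4% of all genes with 200 or more counts) and a median of -0.11.

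The 3 genomic clusters described next were not picked by a rule fixed beforehand. In each, more members were lower than higher at the adjusted p. Over all genes with 200 or more counts, 22.6% were higher and 23.4% lower. Not all of the 16 clusters were alike. Those on chromosome 7 from Zfp84 to Zfp146 and from Zfp553 to Zfp646 had medians of -0.17 and -0.09. That on chromosome 17 from Zfp871 to Zfp414 had 2 higher and 1 lower member. Those on chromosome 8 from Zfp930 to Zfp866 and on chromosome 7 from Zfp60 to Zfp36 had medians of -0.42 and -0.52. The cluster on chromosome 13 from Zfp759 to Zfp273 (GRCm38 positions 67121660 to 67827002) holds 14 members, all with a KRAB box. Of these, 13 had a log2 fold change below 0, and 8 (57.1%) were lower at the adjusted p with none higher. These 8 were Zfp493 (-2.06), Zfp953 (-0.81), Zfp65 (-0.71), Zfp748 (-0.54), Zfp58 (-0.52), Zfp759 (-0.49), Zfp595 (-0.48) and Zfp738 (-0.46). Zfp458 alone had a value above 0, at 0.18 with an adjusted p of 0.656. The same stretch holds Rsl1 (67173182 to 67184044), a KRAB gene known as a repressor of sex-limited liver genes, and next to it lies Rslcan18 (67096613 to 67116263). Both were named after their values were seen, and Rsl1 fell by 0.49 (adjusted p = 0.0289) and Rslcan18 by 1.84 log2 units (adjusted p = 0.000148), the latter from only 169 counts in all. The median of the 14 members was -0.51 under TMM and -0.32 under library size alone, where 3 remained lower at the adjusted p.

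The cluster on chromosome 7 from Zfp180 to Zfp428 (24081924 to 24515682) holds 9 members, of which 6 were lower (66.7%) and 1 higher (11.1%). Its median was -0.69 (-0.51 under library size alone, with 5 lower). The 6 that fell, Zfp109 (-1.14), Zfp108 (-0.95), Zfp93 (-0.77), Zfp111 (-0.77), Zfp94 (-0.69) and Zfp235 (-0.60), each had all KO livers below all controls. Of all genes with 200 or more counts, 17.3% did so. Zfp428, at the end of the cluster, rose by 0.66 (adjusted p = 0.0417) from a low level, 1.31 CPM in the controls. The largest cluster, on chromosome 17 from Zfp160 to Zfp13 (21008903 to 23599487), holds 23 KRAB members. Of these, 9 were lower (39.1%) and 2 higher (8.7%), and under library size alone 6 and 3. Its neighbors Zfp760, Zfp229 and Zfp820 fell by 1.05, 1.01 and 1.64, and Zfp995 by 0.86, whereas Zfp52 and Zfp13 rose. Over all 16 clusters, 10 of the 129 members were higher (7.75%) and 44 lower (34.1%), with a median of -0.27. Outside of clusters 24 of 146 were higher (16.4%) and 41 lower (28.1%), with a median of -0.15. The background of genes with 200 or more counts was 22.6% higher and 23.4% lower. Under library size alone 14 members in clusters were higher and 24 lower, and 31 and 21 of those outside. In that setting 25.1% of all tested genes were higher and 9.68% lower. Members of a cluster are close relatives, and the handling of reads that match several of them is not given in the sources used here.

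**Figure D4:**
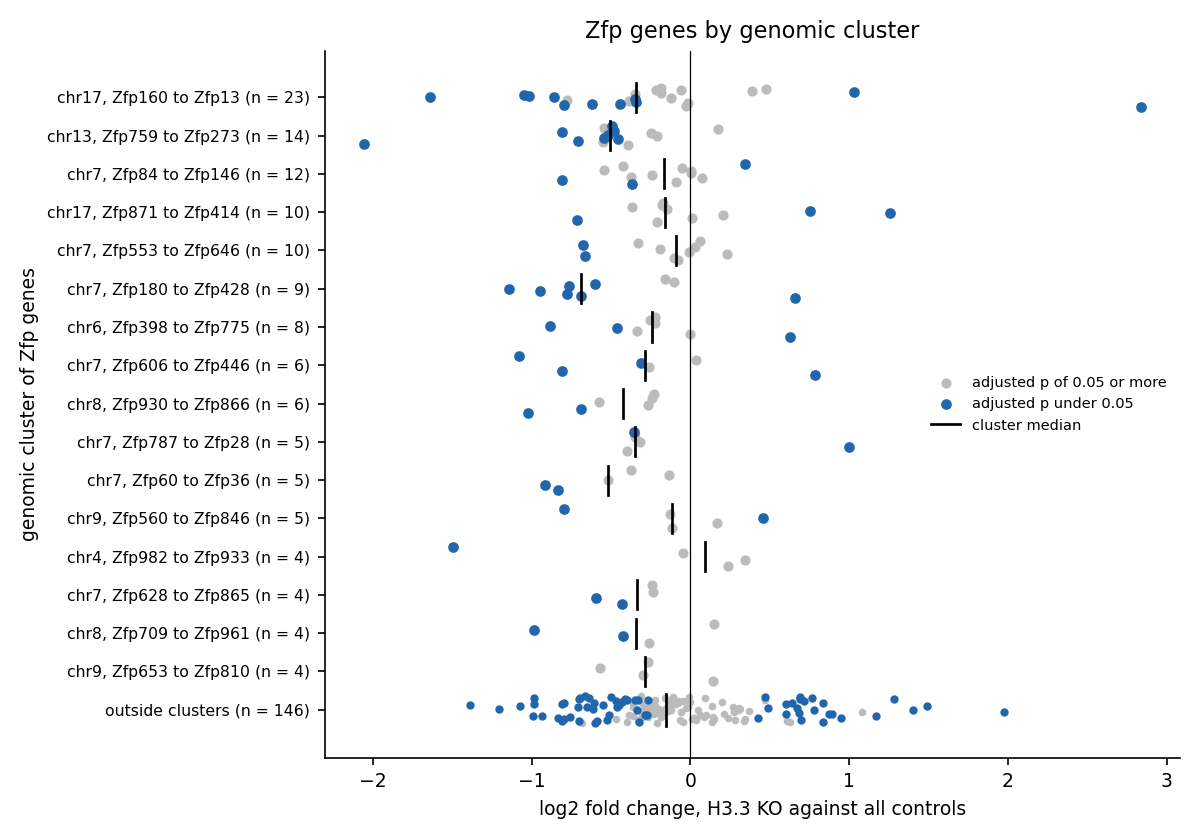
Log2 fold change of each Zfp gene in the H3.3 KO against all 6 controls, by genomic cluster and outside of clusters, with genes at an adjusted p under 0.05 in blue and the cluster median as a black line. The medians of the chromosome 13 cluster from Zfp759 and of the chromosome 7 cluster from Zfp180 are -0.51 and -0.69 under TMM, and -0.32 and -0.51 when the counts are scaled by library size alone.

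The comparison was then made with each kind of control, of which one shares the Cre virus with the KO and the other the floxed genotype. Both comparisons use the same 4 KO livers, and are not independent of each other. Against the wild-type Tbg-Cre controls, 10 members were called higher and 12 lower (8.00% against 15.9% of all tested genes), and at the adjusted p alone 27 were higher (9.82%) and 59 lower (21.5%). The background was 15.3% and 13.1% over all tested genes, and 18.9% and 18.6% over those with 200 or more counts. Against the floxed Tbg-MCS controls, 12 were called higher and 15 lower (9.82% against 17.5%), and at the adjusted p alone 31 were higher (11.3%) and 77 lower (28.0%). The background was 17.3% and 14.8% over all tested genes, and 21.3% and 21.4% over those with 200 or more counts. The medians were -0.145 and -0.272. Under library size alone the split against the Tbg-Cre controls was 31 higher and 42 lower, and that against the Tbg-MCS controls turned to 47 higher (17.1%) and 34 lower (12.4%). In the latter all genes moved along, to a median of 0.251 with 24.9% higher and 7.56% lower, and the members' median stayed 0.273 log2 units below it, against 0.278 with TMM. The members called against both were Zfp13, Zfp516, Zfp608, Zfp763, Zfp251 and Zfp839, which were higher, and Zfp493, Zfp820, Zfp982, Zfp2, Zfp72, Zfp109, Zfp606 and Zfp672, which were lower. At the adjusted p alone 20 were higher and 47 lower against both, and none was higher against one and lower against the other. Of all 22449 tested genes, 2783 were higher and 2162 lower against both, 16 differed in direction, and 1901 were called higher and 769 lower against both.

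**Figure D5:**
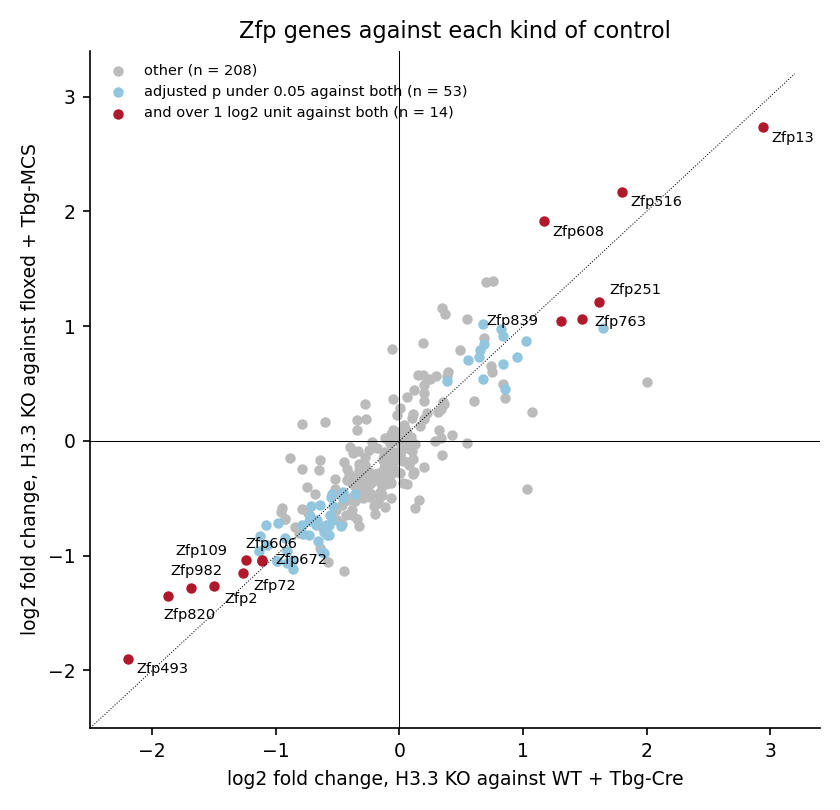
Log2 fold change of each Zfp gene in the H3.3 KO against the floxed Tbg-MCS controls (y axis) and against the wild-type Tbg-Cre controls (x axis), both from the same 4 KO livers, with equal values on the dotted diagonal. The 14 red genes pass both limits against both controls, with Zfp13 at 2.94 against Tbg-Cre and 2.73 against Tbg-MCS, and Zfp493 at -2.19 and -1.90.

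The 2 kinds of control were also compared with each other. No Zfp gene passed both limits in edgeR (background 0.641%), with 27 of 275 at an unadjusted p under 0.05, against 2397 of all 22449 genes, and DESeq2 called 2. At the adjusted p alone 1 member differed, Zfp958, a KRAB gene of chromosome 8. Zfp958 was at 8.46, 7.94 and 7.90 CPM in the Tbg-Cre controls, at 5.05, 4.11 and 5.48 in the Tbg-MCS controls, and at 10.1, 11.0, 9.86 and 10.9 in the KO. It was highest in the KO and lowest in the Tbg-MCS controls with no overlap between any of the groups (Tbg-Cre against Tbg-MCS 0.73 log2 units, adjusted p = 0.036), so that its KO difference was 1.11 against the Tbg-MCS controls and 0.37 against the Tbg-Cre controls (adjusted p = 0.0547).

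The members just above the limit of 200 counts were Zfp69 and Zfp593, with 205 counts each and log2 fold changes of -0.27 and 0.34, and the genes just below it were Zfp423 with 187 counts (-0.09) and Zfp61 with 179 (0.56). Of the 101 Zfp genes below the limit, 15 had no count and 23 had 1 to 9. Of the other 63, 13 passed both limits (20.6%, against 6.91% of the members and 18.7% of all tested genes), 9 higher and 4 lower. At the adjusted p alone 11 were higher and 4 lower, with a median log2 fold change of 0.23.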

How the data were processed

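Poly(A) libraries of 10 whole livers were made with a strand-marking kit and sequenced by the authors. Per the labels and the study's methods, reads were aligned to mm10 with STAR; the labels name HTSeq and Cufflinks, the methods HOMER, for counting. The deposited tables hold read counts per gene and FPKM values per gene. Control columns were matched to libraries by library number; comparisons with all 6 controls do not depend on this match. The labels give each liver a group and a replicate number, with nothing on litter or cage, so that p-values measure the spread between these livers.

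Counts were tested with edgeR 4.0.16 (TMM, robust quasi-likelihood F test, two-sided, R 4.3.3) on the 22449 genes with 10 or more counts in all, with Benjamini-Hochberg adjustment over all of them. Called genes had an adjusted p below 0.05 together with a log2 fold change beyond 1 in either direction. The fit against all controls used 2 groups, the others 3 groups. CPM values use TMM-adjusted library sizes; SE is the log2 fold change divided by the root of F. Alternatives were DESeq2 1.42.0, other scalings and filters, limma 3.58.1 on log2(FPKM + 1) or log2(FPKM + 0.1), a replicate block and leaving out each library. The code was tested on simulated data.

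Named genes were the members called in either direction whose KO and control values did not overlap (up to 12 higher and 8 lower) and the 5 members of highest CPM. A list of 22 Zfp genes, most with known roles, was added, of which 19 were members. The members and lists were chosen with earlier results of these data known. Gene positions, overlaps and protein letters came from GENCODE M21 (GRCm38); a KRAB box was scored over 40 residues, with a score of 20 or more, and fingers by their cysteine and histidine spacing. Promoters came from RefSeq (GRCm38.p6).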

Additional observations from a re-analysis of the deposited data

Results flagged for a closer look

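In groups of 4 to 10 livers the highest or lowest value was compared with the gap to its nearest neighbor; chance flags about 1 group in 20. Among the named genes, Zfp2 in the KO had 1 liver at 2.48 CPM with the others at 2.10 to 2.11, and Zfp125 in the KO had 1 liver at 22.4 CPM with the others at 14.96 to 16.2. Zfp958 differed between the kinds of control, higher by 0.73 log2 units in the wild-type Tbg-Cre than in the floxed Tbg-MCS livers (edgeR, adjusted p = 0.036), with all 3 livers of the former above all 3 of the latter.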

How the results depend on the processing

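The values by direction without the fold limit, and those of Zfp251, Zfp839, Zfp52, Zfp760, Zfp866, Zfp229 and Zfp958, were chosen after seeing the data. With no fold limit the called members were 119 against all controls, 86 against Tbg-Cre, 108 against Tbg-MCS and 1 between controls. With the fold limit kept (19, 22 and 27 members in the main analysis), log2(FPKM + 1) gave 3, 4 and 5, and log2(FPKM + 0.1) gave 14 against Tbg-Cre and 17 against Tbg-MCS. Of all tested genes, log2(FPKM + 1) called 5.64%, 4.88% and 6.04%, against 18.7%, 15.9% and 17.5% in the main analysis. With log2(FPKM + 0.1) the shares were 11.0% against Tbg-Cre and 13.5% against Tbg-MCS. At the adjusted p alone, log2(FPKM + 1) gave 42 higher and 21 lower members against Tbg-MCS, where 21.0% of all genes were higher and 6.69% lower. Lower members against all controls were 45 under library size alone, 45 on log2(FPKM + 1) and 44 on log2(FPKM + 0.1), against 85. Of all tested genes 9.68%, 9.15% and 9.43% were lower in these settings, against 16.6%. Between controls, DESeq2 gave 2 and no filter 2. Leaving out each library gave 16 to 30 called against all controls (30 without KO replicate 1), 20 to 33 against Tbg-Cre, 20 to 34 against Tbg-MCS and 0 to 2 between controls. Without KO replicate 1 the shares called of all genes were 21.2% against all controls, 19.7% against Tbg-Cre and 21.3% against Tbg-MCS. The replicate numbers did not pair the samples (same-number correlations -0.0387 to 0.111); with the replicate number as a block, 18 members were called against all controls and 1 between controls. Genes that had not passed changed sign as follows. Under library size alone Zfp410 was at 0.001, Zfp706 at 0.046, Zfp207 at 0.055, Zfp638 at 0.122 and Zfp148 at 0.174. On log2(FPKM + 1) and log2(FPKM + 0.1) Zfp207 was at 0.129 and 0.135 and Zfp148 at 0.150 and 0.201. Zfp148 was at 0.020 with DESeq2, 0.018 with its size factors in edgeR, 0.004 with no filter, 0.012 with filterByExpr, 0.027 with 200 or more counts, -0.028 to 0.037 without single libraries and 0.013 with the block. Without single libraries Zfp335 ranged from -0.097 to 0.302, below 0 without KO replicate 4, and Zfp638 from -0.126 to 0.016, above 0 without MCS replicate 3; with the block Zfp335 was at -0.106. The cause was not tested. Of the values of single named genes, 650 kept their direction and their side of the adjusted p limit of 0.05. A further 44 lost and 5 gained an adjusted p under 0.05. The fold limit was not part of this count, and Zfp493, for example, ranged from -2.28 to -0.37 over the alternatives.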
